A study of Homo sapiens with 12 samples.

Results

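The proteasome subunit genes were taken as every row of the gene lists of 2 single-cell RNA-seq libraries whose symbol is PSM, one letter from A to G and a number, with nothing after it. This gave 48 of 57905 genes. Both libraries came from Nalm-6, a human line grown from a B-cell precursor leukemia, and each group held 1 library. The control library has empty vector as its genotype, and its labels give 72 h and no doxycycline, but its title names the solvent DMSO, so its treatment is uncertain. The other library is labelled as induced RUNX1, at 72 h with 500 ng/ml doxycycline, and is called by its label, as the RUNX1-labelled library, because its RUNX1 transcript was lower, with 30.4 counts per 1000000 UMIs (CPM) against 69.7 CPM for control cells. The assay reads 3' ends, and whether this count takes in transcripts of an introduced RUNX1 cDNA was not tested. RUNX1 is a DNA-binding transcription factor of blood cell formation, and the comparison asked which transcripts differ after its induction. The vector, the inducer, the culture and the library preparation cannot be told apart from the RUNX1 label.

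The 26S proteasome degrades proteins that carry ubiquitin chains. Its barrel, the 20S core, has outer rings of alpha subunits (PSMA) that gate the entrance and inner rings of beta subunits (PSMB), of which PSMB5, PSMB6 and PSMB7 cut peptide bonds. The 19S cap binds and unfolds substrates with a base of ATPases (PSMC) and scaffold or ubiquitin-binding subunits, and a lid (both PSMD) that removes ubiquitin. Lymphoid cells also make PSMB8, PSMB9 and PSMB10, which replace the constitutive catalytic subunits in the immunoproteasome, and the PA28 activator (PSME1 and PSME2), both known for their part in making peptides for MHC class I.

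Cells with more than 2000 and fewer than 6000 detected genes and under 20% mitochondrial UMIs (unique molecular identifiers, each standing for a captured molecule) were kept, which left 5598 control cells with 75754137 UMIs and 4800 cells with 75350615 UMIs in the RUNX1-labelled library. The median cell held 12505.5 and 14805 UMIs. Mitochondrial genes took 9.45% of UMIs in the control and 13.1% in the RUNX1-labelled library, and 89 ribosomal protein genes took 27.4% and 32.3%. Of the cells deep enough for a phase call, 5.69% in the control (295 of 5185) and 53.9% in the RUNX1-labelled library (2257 of 4188) were called G1. All 12 B precursor markers reached 10 CPM in both libraries, and none of 6 T cell and none of 3 erythroid markers did in either. Of 7 myeloid markers, 0 reached it in the control and 1 in the RUNX1-labelled library, and they summed to 9.83 and 35.1 CPM. The libraries shared 12 barcodes, 10 of them passing.

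Values are UMIs summed over cells per 1000000 UMIs of the same cells. A gene counted as measured at 10 CPM or more in at least 1 of the groups compared, and as lower or higher where its log2 ratio was at least 0.5 away from 0 in that direction. With 1 library in each group no test between them was possible, and every interval is a 95% interval for counting error, not for variation between cultures. Of the 48 proteasome genes, 45 were measured, with 667 to 55820 UMIs in a library. PSMA8, a testis alpha subunit, had 0 and 1 UMI, and PSMB11, the catalytic subunit of thymic cortical epithelium, had 0 in both, where 3 UMIs correspond to 0.0396 CPM for control cells and 0.0398 CPM in the RUNX1-labelled library. The third gene not measured, PSMA2, had 0 and 1 UMI. Its symbol stands on a read-through locus in the files, and the alpha subunit itself is in a row with another symbol.

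Almost all proteasome genes were at a smaller share of UMIs in the RUNX1-labelled library. The log2 ratio of that library over the control was below 0 for 43 of 45 measured genes, each with an interval wholly below 0, against 60.1% of all 7980 measured genes, and for 36 of 45 when mitochondrial and ribosomal protein genes were left out of the totals. It passed -0.5 for 13 of 45 (28.9%), against 21.4% of all genes, and no proteasome gene passed 0.5, against 13.8% of all genes. Their median was -0.33, and that of all measured genes -0.13. Most proteasome genes are abundant, however, and abundant genes as a class were lower: among genes at 50 CPM or more, 13 of 38 proteasome genes (34.2%) passed -0.5 against 30.5% of 2860 genes, with medians of -0.34 and -0.28, and 26 of 38 were below the median of those genes. Over the whole libraries the median of the proteasome genes was therefore close to that of all genes at 50 CPM or more. At this floor 0 of 38 proteasome genes were higher, against 8.71%. The floor has no upper limit, so abundance was not matched gene by gene.

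**Figure D1:**
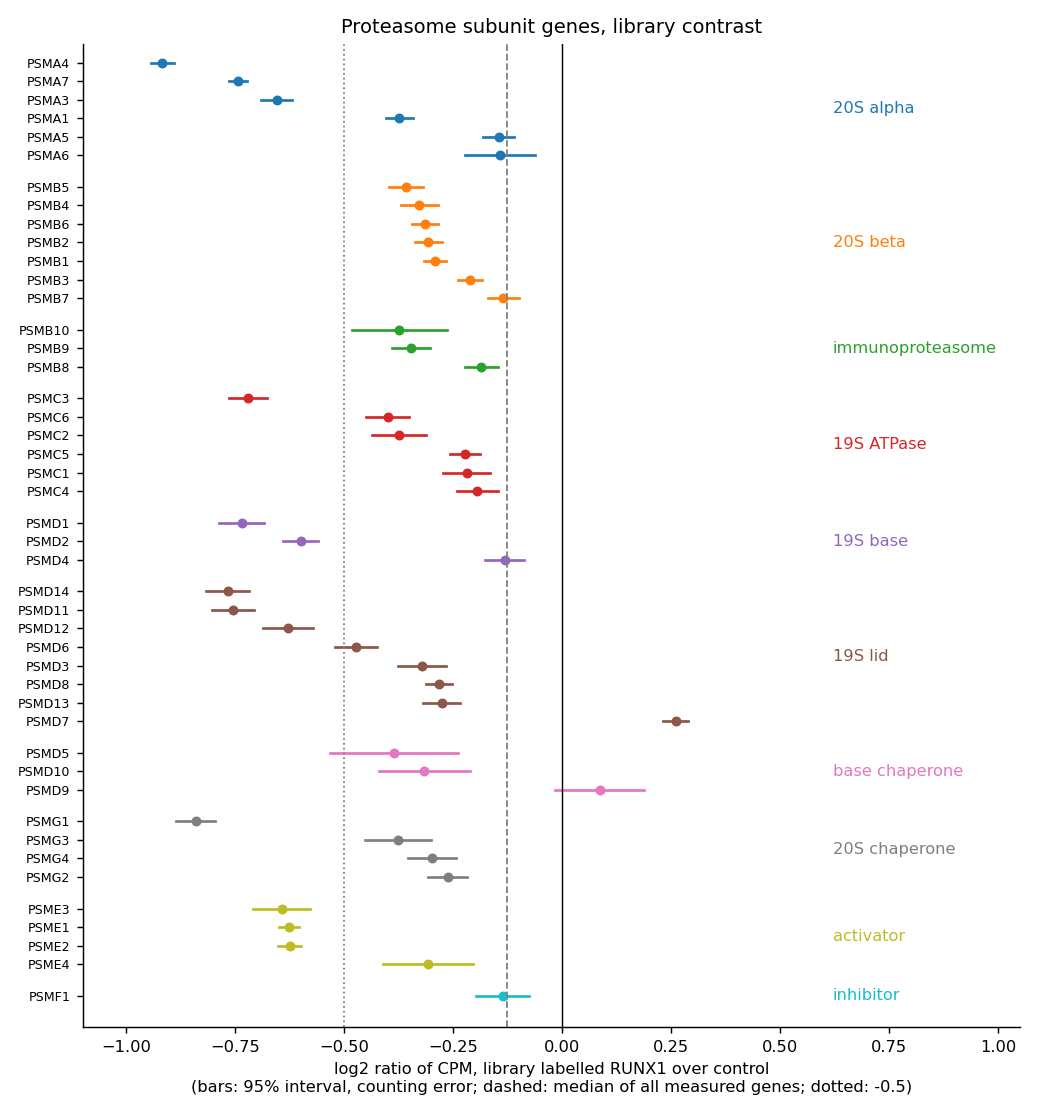
Log2 ratio of CPM (x axis, library labelled RUNX1 over control) for each of the 45 measured proteasome subunit genes, grouped by role, with bars for the 95% counting interval, a dashed line at the median of all measured genes and a dotted line at -0.5. PSMA4 is farthest to the left at -0.92, PSMD7 and PSMD9 are the points right of 0, and the 20S beta subunits sit together between -0.36 and -0.14.

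The alpha ring held the gene farthest from 0, PSMA4, and also some of the smallest differences. PSMA4 had 448 CPM in control cells and 237 CPM in the RUNX1-labelled library, a log2 ratio of -0.92 (-0.94 to -0.89). PSMA7 had 737 and 440 CPM (-0.74), and PSMA3, named here after its values were seen, 230 and 146 CPM (-0.66). These 3 of the 6 measured alpha subunits were lower, against 21.4% of all genes and 30.5% of those at 50 CPM or more. The other alpha subunits at the upper end were PSMA5, at 184 and 166 CPM (-0.15), and PSMA6, at 35.1 and 31.8 CPM (-0.14). Subunits of 1 ring thus had transcript ratios that differed by more than their counting intervals.

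The beta ring was more even. None of its 7 subunits was lower, against 21.4% of all genes, and their log2 ratios ran from -0.36 to -0.14. PSMB5, which carries the chymotrypsin-like activity, had 164 and 128 CPM (-0.36, -0.40 to -0.32). PSMB6, the caspase-like subunit, had 267 and 214 CPM (-0.32), and PSMB7, the trypsin-like subunit, 176 and 160 CPM (-0.14). Among the noncatalytic beta subunits PSMB4 stood at -0.33 and PSMB3 at -0.21. As summed UMIs, the alpha subunits went from 18.8 to 12.1 per 10000 UMIs and the beta subunits from 16.8 to 13.9. The alpha sum leaves out the alpha subunit PSMA2, whose row under another symbol had 6835 and 6428 UMIs (-0.08).

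In the 19S cap, 6 of 17 genes were lower, with a median of -0.37, near the 30.5% of genes at 50 CPM or more that were lower. Of the ATPases only PSMC3 was, at 152 and 92.1 CPM (-0.72, -0.76 to -0.68), followed by PSMC6 at -0.40, while PSMC1 and PSMC4 were at -0.22 and -0.20. The scaffold subunits PSMD1 (110 and 65.9 CPM, -0.74) and PSMD2 (164 and 108 CPM, -0.60) were lower, and the ubiquitin receptor PSMD4 was at -0.13. In the lid, PSMD14, the enzyme that cuts ubiquitin off the substrate, had 117 and 68.6 CPM (-0.77, -0.82 to -0.72), and PSMD11 had 124 and 73.5 CPM (-0.76).

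PSMD7, the inactive partner of PSMD14 in the lid, went the other way. It had 239 CPM in control cells and 287 CPM in the RUNX1-labelled library, a log2 ratio of 0.26 (0.23 to 0.29), and it was the only proteasome gene with an interval wholly above 0. Its direction was the same in cells called G1 (0.26, 0.14 to 0.38), in cells called S or G2/M (0.47, 0.44 to 0.51), and under every scaling tried, where it ranged from 0.13 to 0.47. In G2/M cells alone it was higher, with 235 and 356 CPM (0.60, 0.55 to 0.65), and in S cells it had 246 and 315 CPM (0.36, 0.31 to 0.40). It was the 1 higher gene of 45 in G2/M cells, against 7.45% of all 7784 genes, where 8 were lower, against 14.5%. PSMD9, a chaperone of the base, was at 0.09 (-0.02 to 0.19), with 20.2 and 21.4 CPM.

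Of the regulators, 3 of the 4 activator genes were lower, against 21.4% of all genes and 30.5% of those at 50 CPM or more. PSME1 had 506 and 328 CPM (-0.63, -0.65 to -0.60), PSME2 393 and 255 CPM (-0.63), and PSME3, which forms the nuclear PA28 ring, 62.9 and 40.3 CPM (-0.64). PSME4 (PA200) had 22.9 and 18.5 CPM (-0.31, -0.41 to -0.21). PSMF1, the inhibitor PI31, had 59.1 and 53.7 CPM (-0.14). The chaperones that build the core included one clear difference, PSMG1, which pairs with PSMG2 to assemble the alpha ring. PSMG1 had 149 and 83.2 CPM (-0.84, -0.89 to -0.80), while its partner PSMG2 had 119 and 98.8 CPM (-0.26), PSMG3 42.0 and 32.3 CPM (-0.38) and PSMG4 80.9 and 65.8 CPM (-0.30). The base chaperones PSMD5 and PSMD10 were at -0.39 and -0.32.

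The 3 immunoproteasome subunits were expressed in these leukemia cells, with PSMB8 at 162 and 143 CPM (-0.19), PSMB9 at 127 and 99.9 CPM (-0.35) and PSMB10 at 20.9 and 16.2 CPM (-0.37). None was lower or higher, against 21.4% and 13.8% of all genes. Each was set against the subunit it replaces, a ratio that needs no library total but still depends on how well each 3' end is captured, so the change between libraries is read and not the level. PSMB8 over PSMB5 was 0.989 in the control and 1.11 in the RUNX1-labelled library, a log2 difference of 0.17 (0.12 to 0.23). PSMB9 over PSMB6 was 0.476 and 0.466, a difference of -0.03 (-0.08 to 0.02), and PSMB10 over PSMB7 was 0.119 and 0.101, a difference of -0.24 (-0.35 to -0.13). In cycling cells the second pair was at 0.479 and 0.511, a difference of 0.092 (0.031 to 0.15), where the first stood at 0.11 (0.049 to 0.18) and the last at -0.23 (-0.36 to -0.095). Over all cells the first and the last pair differed in sign, and the summed ratio of all 3 was 0.511 and 0.515, a difference of 0.01 (-0.02 to 0.04). In G1 cells alone the intervals of the first and the last pair took in 0, with differences of 0.075 (-0.11 to 0.26) and -0.059 (-0.49 to 0.37).

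In cells thinned to 8000 UMIs each, a UMI of PSMB8 was seen in 71.3% of 5185 control cells (95% Clopper-Pearson interval 70.0 to 72.5) and in 65.5% of 4188 cells of the RUNX1-labelled library (64.0 to 66.9). For PSMB9 the shares were 62.9% and 49.5%, for PSMB5 72.3% and 62.0%, and for PSMB10 15.6% and 10.9%. Without thinning they were 83.7% and 81.0% for PSMB8, 77.8% and 67.1% for PSMB9, 85.5% and 78.7% for PSMB5, and 24.1% and 21.4% for PSMB10. The order of the libraries was the same with and without thinning for each of these genes. No cell type that should lack them is in the files, so a share from free RNA could not be set beside them. PSMB11 was seen in 0 of 5185 and 0 of 4188 cells.

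The ratios differed with the cycling state of the cells. In cells called G1, 16 of 45 proteasome genes (35.6%) were lower in the RUNX1-labelled library, against 22% of 7950 genes, and 0 were higher, against 19.6%. Their median was -0.40, and that of all genes -0.06. With genes at 50 CPM or more, 16 of 38 (42.1%) were lower against 31.5%, the medians were -0.41 and -0.23, and 33 of 38 were below the median of those genes. In S or G2/M cells, 8 of 45 (17.8%) were lower, against 13.1% of 7703 genes, and 0 were higher, against 6.47%, with medians of -0.23 and -0.14. At 50 CPM or more the last 2 medians came to -0.23 and -0.21, and 21 of 38 proteasome genes were below the median of those genes. The proteasome genes thus stood apart from abundant genes by 0.17 in cells called G1 and by 0.02 in cycling cells, on the log2 scale. Phase was scored over both libraries together, and cells called G1 need not be in the same cycling state in both. In the lowest decile of cells by share of S and G2/M genes, the median control cell had 33.7 UMIs per 10000 of them. The median cell of that decile in the RUNX1-labelled library had 10.5. The part of this in the result was not tested. The control has 295 G1 cells with 10377 UMIs in the median cell, against 12897 in the RUNX1-labelled library. Mitochondrial and ribosomal protein UMIs were 10.8% and 30.7% of its G1 cells and 14.0% and 34.1% of those of the RUNX1-labelled library, and their part in the result was not tested beyond the scalings given at the end.

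**Figure D2:**
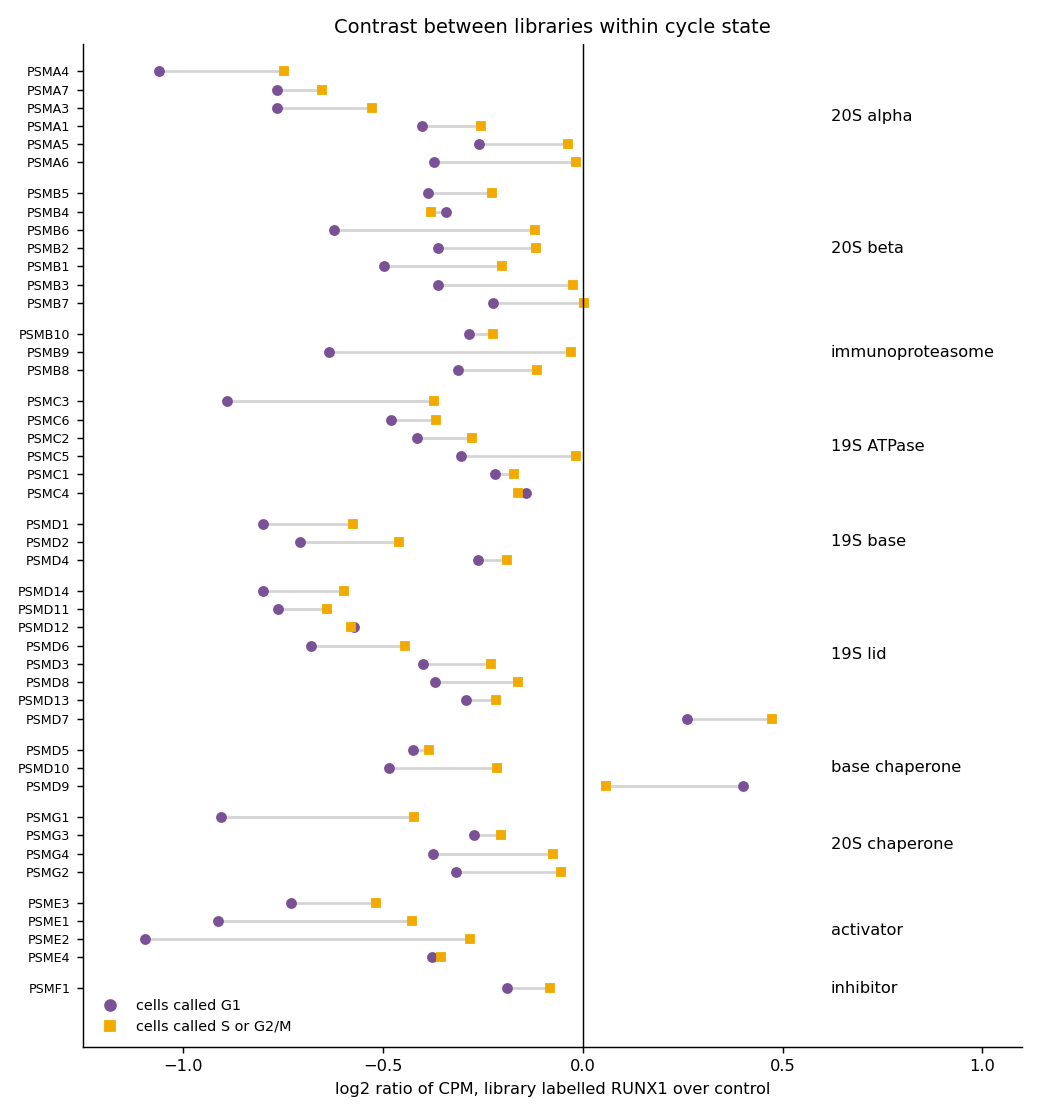
Log2 ratio of CPM (x axis, library labelled RUNX1 over control) of the 45 measured genes, computed in cells called G1 (purple circles) and in cells called S or G2/M (yellow squares), joined by a grey line. For PSME2 the circle is at -1.09 and the square at -0.28, for PSMB9 at -0.64 and -0.03, and PSMD7 lies right of 0 in both.

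Among the 45 measured genes, PSME2 of the PA28 pair had the widest gap between the states. It was at 395 and 185 CPM in G1 cells (-1.09, -1.18 to -1.01), which is 2.14 times lower in the RUNX1-labelled library. In S or G2/M cells it was at 392 and 322 CPM (-0.28, -0.31 to -0.25). Its partner PSME1 was at 525 and 279 CPM in G1 cells (-0.91, -0.99 to -0.84) and 504 and 375 CPM in cycling cells (-0.43, -0.45 to -0.40). Set against the 20S core of the same cells, PA28 (both genes summed) had a ratio of 0.268 in control G1 cells and 0.200 in G1 cells of the RUNX1-labelled library, a log2 difference of -0.43 (-0.49 to -0.36), and 0.251 and 0.245 in cycling cells, a difference of -0.04 (-0.06 to -0.01). These ratios within the proteasome do not use the library total.

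Other genes with a gap at least as wide as that of PSME1 included PSMB9, at 112 and 72.2 CPM in G1 cells (-0.64, -0.80 to -0.47) and 128 and 125 CPM in cycling cells (-0.03, -0.08 to 0.02), and PSMC3, at -0.89 in G1 and -0.37 in cycling cells. PSMB6 was at -0.62 and -0.12, and PSMG1 at -0.91 and -0.42, a gap just under that of PSME1. In contrast, PSMA4 kept most of its difference, with 424 and 203 CPM in G1 cells (-1.06, -1.14 to -0.97) and 450 and 268 CPM in cycling cells (-0.75, -0.78 to -0.72). The same held for PSMA7 (-0.76 and -0.65), PSMD11 (-0.76 and -0.64) and PSMD14 (-0.80 and -0.60). All 8 genes that were lower in cycling cells were among the 13 of the library contrast, and all 13 were lower in G1 cells.

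As a share of all UMIs, the 48 genes took 76.0 per 10000 in the control and 56.6 per 10000 in the RUNX1-labelled library. Across G1, S and G2/M cells the control stayed between 72.1 and 76.4, while the RUNX1-labelled library had 49.6 in G1, 62.5 in S and 63.7 in G2/M cells. The 3 immunoproteasome genes were at 3.21 and 3.10 per 10000 in G2/M cells, with intervals that overlapped, and at 2.96 and 2.21 in G1 cells, with intervals that did not. The 20S alpha genes remained apart in each state, with 18.8 and 13.2 per 10000 in S or G2/M cells, where the 20S beta genes had 16.8 and 15.3. Without mitochondrial and ribosomal protein genes in the total, the alpha genes had 29.7 and 23.5 in these cells. The beta genes then had 26.5 and 27.3 and the immunoproteasome genes 4.90 and 5.23, so the order of the libraries for both groups depended on the total.

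**Figure D3:**
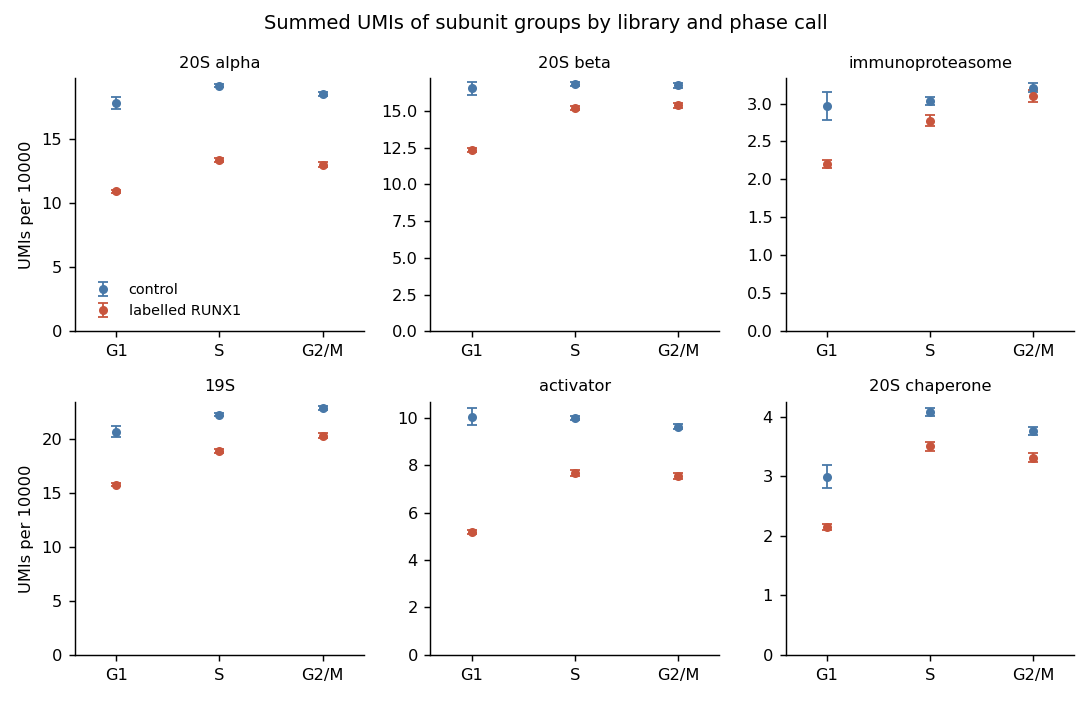
Summed UMIs per 10000 UMIs of all genes (y axis, from 0) for 6 groups of subunits in cells called G1, S and G2/M (x axis). The control is blue and the RUNX1-labelled library red, with 95% counting intervals. The activator group shows its lowest value, 5.18, in G1 cells of the RUNX1-labelled library, where the control has 10.0, and the immunoproteasome intervals overlap in G2/M cells only.

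Within each library the G1 cells were also set against the S or G2/M cells. In the control 1 of 45 proteasome genes was lower in G1 cells, against 13.7% of 7658 genes, and 0 were higher, against 5.08%. That gene was PSMG1, with 93.0 CPM in G1 and 152 CPM in cycling cells (-0.71, -0.88 to -0.54). In the RUNX1-labelled library, 6 of 44 were lower in G1 cells, against 15.9% of 7987 genes, and 0 were higher, against 15%, with a median of -0.29 where all genes had -0.00. A share of 6 in 44 is near that background, but 41 of 44 were below 0, and the medians at 50 CPM or more were -0.31 for the proteasome genes and -0.13 for all genes. PSMG1 was again the farthest of these genes from 0, with 49.7 CPM in G1 and 113 CPM in cycling cells (-1.19, -1.27 to -1.11).

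PSME2 and PSMB9 passed the limit between the states in the RUNX1-labelled library and not in the control. PSME2 had 185 CPM in G1 and 322 CPM in cycling cells of the RUNX1-labelled library (-0.80, -0.85 to -0.76), and 395 and 392 CPM in the control (0.01, -0.07 to 0.09). PSMB9 was at -0.79 (-0.87 to -0.72) in the RUNX1-labelled library and at -0.19 (-0.34 to -0.04) in the control, and PSMC3 at -0.95 and -0.43. The remaining genes past the limit in the RUNX1-labelled library were PSMG2 (-0.51) and PSMC5 (-0.50), the latter named after its values were seen. The counting intervals of PSME2, PSMB9 and PSMC3 do not overlap between the libraries, but whether the difference exceeds that between cultures was not tested. Within either library no proteasome gene differed by 0.5 or more between G2/M and S cells, and few genes of any kind did. In the control 76 of 7531 genes were lower in G2/M cells and 179 higher. In the RUNX1-labelled library 78 of 7546 were lower and 254 higher.

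Phase calls cut a continuous score, and 4.886% of called cells lay within 0.05 of the G1 limit, so each library was also divided into 10 deciles of cells by their share of S and G2/M genes, of which none is a proteasome gene. In the control the proteasome genes took 72.1 to 81.0 UMIs per 10000 with the highest value in the second decile and the lowest in the last, and 73.7 in the lowest decile, whose median cell had 33.7 UMIs per 10000 of S and G2/M genes. In the RUNX1-labelled library they took 43.2 in the lowest decile, 57.3 in the sixth, and between 62.6 and 63.9 in the 4 highest. The lowest deciles of the libraries do not match, since the median cell of the lowest decile in the RUNX1-labelled library had 10.5 per 10000 of S and G2/M genes. When UMIs of mitochondrial and ribosomal protein genes were left out of the total, the values ran from 85.2 in the lowest decile to 118.7 in the seventh in the RUNX1-labelled library. In the control they were 125.1 in the lowest decile, 131.8 in the second and 110.1 in the last.

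**Figure D4:**
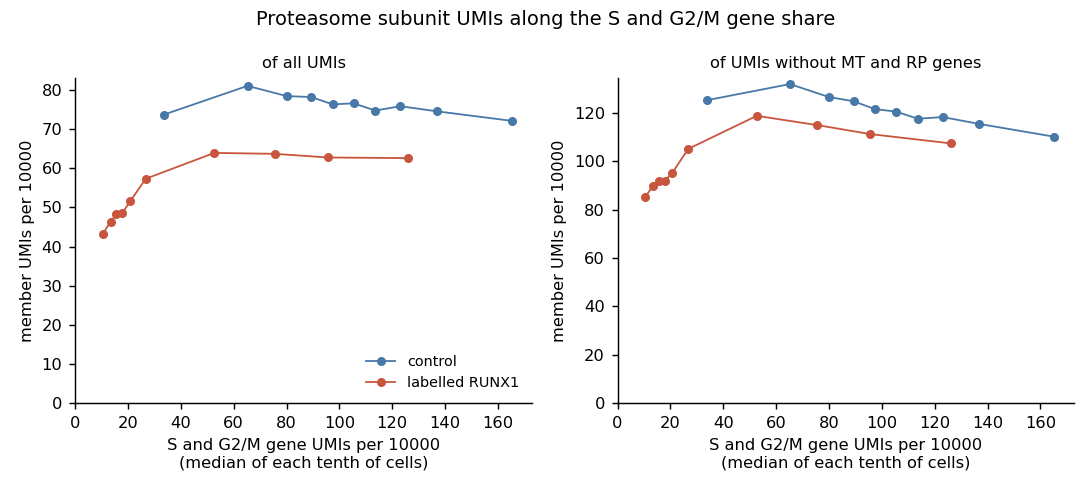
UMIs of the proteasome genes per 10000 (y axis, from 0) against the median S and G2/M gene share of each decile of cells (x axis, UMIs per 10000) in the control (blue) and the RUNX1-labelled library (red), over all UMIs on the left and without mitochondrial (MT) and ribosomal protein (RP) genes on the right. The red points climb from 43.2 to 63.9 over the 7 lowest deciles on the left, and the blue points stay between 72.1 and 81.0.

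The G1 cells of the RUNX1-labelled library were not uniform. Those with a UMI of CCL3 or CCL4, chemokine genes, (1081 cells) held 46.0 proteasome UMIs per 10000, and those with FCER1G, an Fc receptor subunit, and no chemokine UMI (486 cells) held 46.7. The 690 cells with neither held 55.5, below the 72.1 of the control G1 cells. PSME1 and PSME2 together had 3.89, 4.09 and 5.87 per 10000 in these sets, against 9.20 in control G1 cells. The sets were chosen with earlier results of these data known, and their median cells had 11511, 12265.5 and 15730.5 UMIs.

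Single cells showed the same order as the sums. Thinned to 8000 UMIs, the median control cell held 75 proteasome UMIs per 10000 and the middle 90 percent lay between 55.0 and 97.5. In the RUNX1-labelled library the median was 53.8, and the range 33.8 to 78.8. The median was 71.3 and 47.5 in G1 cells, and 76.3 and 62.5 in S or G2/M cells. The standard deviation over cells was 13.1 in the control and 14.1 in the RUNX1-labelled library, where counting alone would give 9.73 and 8.29. The distributions overlapped in both states.

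**Figure D5:**
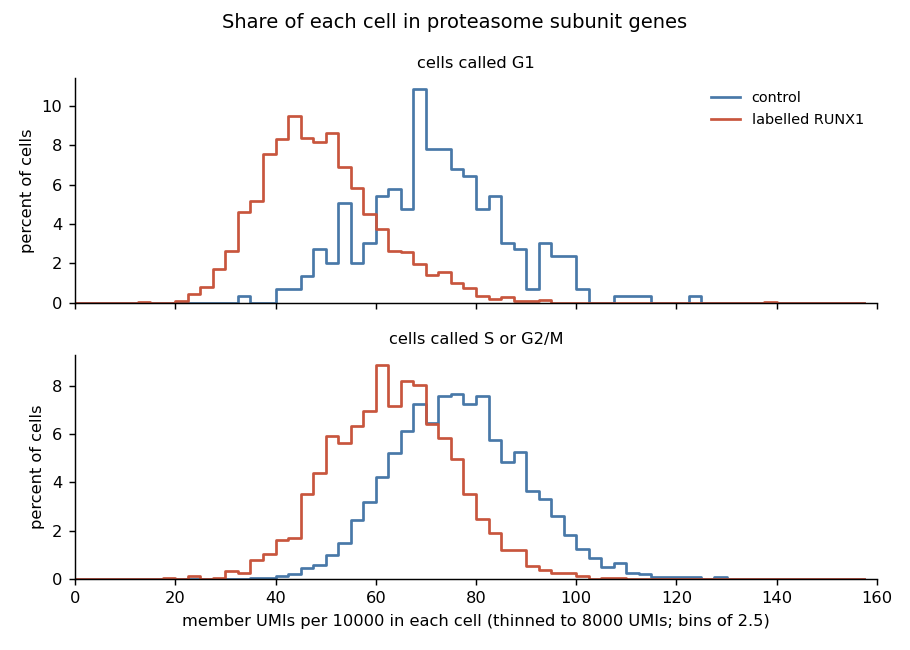
Percent of cells (y axis) by proteasome gene UMIs per 10000 (x axis, cells thinned to 8000 UMIs) in G1 cells (top) and S or G2/M cells (bottom) for the control (blue) and the RUNX1-labelled library (red). The red curve lies to the left in both panels, with medians of 47.5 against 71.3 above and 62.5 against 76.3 below.

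The proteasome genes are spread over 17 chromosomes among the 47 with a position (GENCODE v44lift37 on GRCh37, the build of the counts). PSME1 (chr14:24605372-24608176, plus strand) and PSME2 (chr14:24612571-24616779, minus strand) lie 4394 bases apart, and PSMB8 (chr6:32808494-32812456, minus) and PSMB9 (chr6:32811913-32827628, plus) overlap by 544 bases in the MHC region. The neighbours PSME1 and PSME2 had equal ratios over the whole libraries, -0.63 each, and PSMB8 and PSMB9 had -0.19 and -0.35. PSMA4 is at chr15:78832747-78844759 and PSMD7 at chr16:74330712-74340186, both on the plus strand. Spans of 19 genes overlap another coding gene, counted on either strand. How reads of the overlapping parts were counted was not tested.

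Promoters of the proteasome genes from the RefSeq table on GRCh38.p14, 250 bases before to 50 after a start, were searched on both strands. The table held 42 of the 48 symbols, with 51 promoters. A pair of GAAA tetramers with 2 bases between them, the core of the element bound by interferon regulatory factors, was in 13.7% of proteasome promoters and in 3.57% of all 35116. The genes with a match were PSMA4, PSMB4, PSMB8, PSMB10, PSME1, PSME2 and PSMG4, which include lower and not lower genes: 3 of 12 lower genes and 4 of 27 others in the table. PSMB8 was not lower, and PSMB9, which was lower in G1 cells, had 0 matches in its promoter. The first 3 sequences below, of the PA28 genes and PSMB8, carry it in capitals and are written 5' to 3' in the sense of the gene. They lie at chr14:24135944-24136243 (plus), chr14:24146561-24146860 (minus) and chr6:32843998-32844297 (minus).
PSME1: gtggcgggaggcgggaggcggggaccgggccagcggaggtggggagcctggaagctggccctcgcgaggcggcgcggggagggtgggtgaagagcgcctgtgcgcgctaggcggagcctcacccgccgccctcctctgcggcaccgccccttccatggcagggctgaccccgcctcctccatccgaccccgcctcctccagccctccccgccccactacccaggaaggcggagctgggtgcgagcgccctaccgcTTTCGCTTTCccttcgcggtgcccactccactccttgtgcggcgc
PSME2: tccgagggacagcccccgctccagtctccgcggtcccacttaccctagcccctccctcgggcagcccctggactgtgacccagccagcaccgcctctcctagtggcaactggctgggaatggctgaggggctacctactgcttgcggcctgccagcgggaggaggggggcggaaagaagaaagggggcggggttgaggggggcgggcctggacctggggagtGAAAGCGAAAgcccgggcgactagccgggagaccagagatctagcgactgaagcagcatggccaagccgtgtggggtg
PSMB8: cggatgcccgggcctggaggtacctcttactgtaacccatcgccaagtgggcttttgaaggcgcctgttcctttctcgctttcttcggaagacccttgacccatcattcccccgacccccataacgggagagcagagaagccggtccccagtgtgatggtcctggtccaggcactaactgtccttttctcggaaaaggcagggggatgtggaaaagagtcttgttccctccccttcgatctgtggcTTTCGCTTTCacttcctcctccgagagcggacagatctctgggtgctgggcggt
PSMA4 and PSMD7, at the opposite ends of the library contrast, both have CCAAT, the letters bound by NF-Y, once on either strand, in capitals below, at chr15:78540536-78540835 and chr16:74296564-74296863, both plus. The PSMA4 promoter shown is 1 of 3 in the table, and the tetramers are in another of them. Neither of the PSMA4 promoters not shown has CCAAT. PSMB8 also has another promoter in the table, which lacks the tetramers.
PSMA4: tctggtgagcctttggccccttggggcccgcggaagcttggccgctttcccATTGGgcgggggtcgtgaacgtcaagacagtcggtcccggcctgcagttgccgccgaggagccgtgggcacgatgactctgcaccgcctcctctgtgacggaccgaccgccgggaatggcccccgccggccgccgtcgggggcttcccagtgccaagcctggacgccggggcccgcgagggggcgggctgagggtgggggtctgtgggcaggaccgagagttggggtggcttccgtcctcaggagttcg
PSMD7: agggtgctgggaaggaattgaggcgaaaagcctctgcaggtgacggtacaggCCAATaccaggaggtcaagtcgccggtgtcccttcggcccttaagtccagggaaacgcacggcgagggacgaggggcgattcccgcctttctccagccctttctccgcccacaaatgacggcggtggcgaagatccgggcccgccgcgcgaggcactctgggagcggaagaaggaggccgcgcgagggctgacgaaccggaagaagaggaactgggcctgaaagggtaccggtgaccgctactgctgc
In PSME1 the tetramers begin 5 bases after the start, and in PSME2 and PSMB8 28 and 4 bases before it. In PSMA4 and PSMD7 the CCAAT letters begin 199 and 198 bases before the start.

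The other motifs were found both in lower genes and in the rest. CCAAT was in 39.2% of proteasome promoters and 34.6% of all, in 6 of 12 lower genes and 12 of 27 others. TGANNNNGC, the core of the antioxidant response element bound by NFE2L1 and NFE2L2, was in 62.7% against 41.8%, in 9 of 12 and 17 of 27. Its stricter form TGACTCAGC was in 0 of 51 proteasome promoters and in 0.561% of all. TGTGGT, bound by RUNX factors, was in 11.8% against 13.1%, in 1 of 12 lower genes and 5 of 27 others, and CCGGAAGT, an ETS site, in 19.6% against 4.14%, in 2 of 12 and 7 of 27. A match is a description of letters in this window only.

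Genes that act with the proteasome were described by 8 lists, with the same limits, and the counts are to be read against the 21.4% of all genes that were lower and the 13.8% that were higher. Of the transcriptional regulators of proteasome genes, 3 of 8 were lower and 0 higher, with a median of -0.38. They include NFE2L2, the factor of the antioxidant response, at 57.2 and 29.1 CPM (-0.98), NFE2L1, which raises proteasome genes when the proteasome is inhibited, at 17.8 and 10.4 CPM (-0.78), and the NF-Y subunit NFYB (-0.64). Of 13 associated and assembly factors 3 were lower and 1 higher (median -0.45), among them the proteasome-bound deubiquitinases UCHL5 (-0.94) and USP14 (-0.92). The proteasome phosphatase UBLCP1 was higher, at 4.58 and 10.9 CPM (1.25). UBLCP1 reached the 10 CPM floor only in the RUNX1-labelled library, so the floor partly fixed its direction.

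Ubiquitin genes, ubiquitin-activating enzymes and shuttles had a median of -0.09 with 3 of 15 lower, about the share of all genes (21.4%), UBQLN4 (-0.56), UBA1 (-0.53) and UFD1L (-0.53). The peptide loading genes that use proteasome products had a median of -0.07, with the chaperones CALR (-0.70) and CANX (-0.51) lower among 12 and HLA-E at 0.34. Among 6 regulators of the immunoproteasome, IRF9 was at 2.23 and 11.0 CPM (2.30) and STAT2 at 7.38 and 13.1 CPM (0.82), both higher. NLRC5, an activator of MHC class I genes, was at 15.8 and 7.19 CPM (-1.14). IRF9 and STAT2 reached the 10 CPM floor only in the RUNX1-labelled library, and NLRC5 only in the control. The floor thus partly fixed the direction of these calls. The immunoproteasome genes themselves were at -0.37 to -0.19.

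Other complexes of many subunits were set beside the proteasome. The COP9 signalosome, related to the lid, had a median of -0.21 with 2 of 8 genes lower, near the share of all genes (21.4%), COPS3 (-0.69) and COPS2 (-0.55), and COPS8 at -0.39. The initiation factor eIF3 had a median of -0.04 with 2 of 13 lower, also near that share, EIF3J (-1.22) and EIF3B (-0.74), and EIF3A at -0.46. The cytosolic chaperonin had 7 of 8 genes lower and a median of -0.62, led by CCT6A (-0.81), TCP1 (-0.74) and CCT5 (-0.74), farther from 0 than the proteasome median of -0.33. In S or G2/M cells 1 of 8 chaperonin genes was lower, against 13.1% of all genes (medians -0.41 and -0.14), and in G1 cells 8 of 8, against 22% (medians -0.75 and -0.06).

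Scaling moved the count of lower genes but not the direction of the genes farthest from 0. With TMM factors 44 of 45 proteasome genes were below 0, with PSMD7 as the exception, and the median of all genes was -0.26. With mitochondrial and ribosomal protein genes left out of the totals, 36 were below 0, and PSMA5, PSMA6, PSMB7, PSMB8, PSMC4, PSMD4, PSMD7, PSMD9 and PSMF1 were above it, while the median of all genes was 0.14. The split of all genes into lower and higher, 21.4% and 13.8%, was 30.9% and 9.84% with TMM and 10.2% and 25.8% without those genes. PSMA4 lay between -1.05 and -0.71 in all settings tried, and in the last of these 43 of 45 proteasome genes were below the median of all genes.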

How the data were processed

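Single-cell RNA-seq of Nalm-6 cells was analysed in 2 libraries, 1 per group. The authors pooled human with mouse cells, used the 10x Genomics 3' assay and counted UMIs against hg19 joined to mm10 in Cell Ranger 3.0.2, and the deposited values are raw human UMI counts. Groups came from the genotype labels. The 10 ChIP-seq samples were not used here.

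UMI counts were summed over passing cells (more than 2000 and fewer than 6000 genes, under 20% mitochondrial and under 500 mouse UMIs) and scaled by their total (CPM). No pseudocount was used. CPM have exact Poisson intervals, ratios exact conditional binomial and shares Clopper-Pearson intervals, at 95% and for counting error only. Phases were scored in scanpy 1.11.5 on cells thinned to 8000 UMIs, which left 413 control cells and 612 of the RUNX1-labelled library without a call. No doublet caller was run, and cells above the 99th percentile of UMIs were left out as an alternative. R 4.3.3 with edgeR 4.0.16 gave the TMM factors, and pandas 2.3.3, scipy 1.17.1 and numpy 2.4.6 under Python 3.11.15 the rest. The ratio step was tested on simulated data.

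The named genes are all catalytic subunits, activators, the inhibitor and core chaperones, the 2 highest and 2 lowest ratios of every other group, and up to 3 genes of each of 8 lists. The genes, lists and comparisons were chosen with earlier results of these data known.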

Additional observations from a re-analysis of the deposited data

Results flagged for a closer look

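Rows that the symbol rule left out held signal. PSMA2-1, the row that carries the alpha subunit PSMA2 (chr7:42956427-42971784 on GRCh37), had 6835 UMIs in the control and 6428 in the RUNX1-labelled library, a log2 ratio of -0.08 (-0.13 to -0.03), which lies among the alpha subunits with small differences. PSMD5-AS1, the antisense RNA beside the base chaperone PSMD5, had 1082 and 1518 UMIs, a log2 ratio of 0.50 (0.38 to 0.61), where PSMD5 itself was at -0.39. Of 30 PSM pseudogenes, 18 had a UMI, with 507 UMIs in all in the control and 322 in the RUNX1-labelled library, against 575548 and 426531 for the 48 proteasome genes.

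Cells called G1 against S or G2/M gave opposite signs in the libraries for 9 proteasome genes, and for 1 of them, PSMB1, with both counting intervals away from 0. Its log2 ratio was 0.10 (0.02 to 0.18) in the control and -0.20 (-0.23 to -0.16) in the RUNX1-labelled library. With 1 library each, the difference was not tested.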

How the results depend on the processing

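No paired analysis was possible because each group has 1 library. Signs turned where values lay near 0. PSMA5, PSMA6, PSMB7, PSMB8, PSMC4, PSMD4 and PSMF1 were above 0 without mitochondrial and ribosomal protein genes (0.016 to 0.079), as was the control median of G1 over cycling cells (0.028), and PSMD9 was below it with TMM (-0.042) and the median of ratios (-0.041). The ubiquitin and COP9 list gaps, 0.041 and -0.085, and PSMB9 over PSMB6, -0.031, also changed sign, as given below. In all, 260 values moved by less than their interval or limit while 205 moved by more.

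The gap between the median log2 ratio of the proteasome genes and that of all genes, -0.20 over the libraries, was -0.33 in cells under 10% mitochondrial UMIs, -0.25 without mitochondrial and ribosomal protein genes, -0.35 at a floor of 1 CPM, -0.056 at 50 CPM, -0.31 with each cell weighted equally and -0.092 with the phase mix of the control. Only 599 cells of the RUNX1-labelled library were under 10% mitochondrial UMIs, against 3651 of the control. For G1 cells, -0.34 became -0.42 with calls made without thinning, -0.44 with the lowest 20% of S and G2/M gene share and -0.17 at 50 CPM. At 50 CPM the gap was -0.016 in S or G2/M cells and -0.18 for G1 over cycling cells of the RUNX1-labelled library. The 50 CPM floor for contrasts within or by cycling state was chosen after seeing the data.

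The 13 lower genes became 20 with TMM, against 30.9% of all genes, and 20 with the median of ratios, against 31.0%. They became 7 without mitochondrial and ribosomal protein genes, against 10.2%, and 8 with the phase mix of the control, against 13.4%. At a 2-fold limit 0 were lower. The 8 of S or G2/M cells became 1 without mitochondrial and ribosomal protein genes. The 6 within the RUNX1-labelled library became 17 with TMM and 18 with the median of ratios. For the 2-fold limit and the counts by cycling state no share of all genes is given, so they are not read as particular to the proteasome genes. The gaps of core, cap and immunoproteasome were -0.33, -0.31 and -0.29 in cells under 10% mitochondrial UMIs, where PSMB10 over PSMB7 was -0.42 (-0.71 to -0.12). Without mitochondrial and ribosomal protein genes they were -0.24, -0.30 and -0.27, the summed share was at -0.21, and the list gaps were -0.37 (associated factors), -0.20 (transcriptional), -0.012 (ubiquitin), 0.0063 (peptide loading), -0.14 (immunoproteasome regulators), -0.010 (COP9), 0.033 (eIF3) and -0.55 (chaperonin). With TMM the transcriptional list was at -0.14 and COP9 at 0.052. PSMB8 over PSMB5 differed by 0.075 in G1 and 0.11 in cycling cells, PSMB9 over PSMB6 by 0.092 in cycling cells and PSMB10 over PSMB7 by -0.059 in G1 cells. The cause of these shifts was not tested.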

Other observations

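Barcodes left out for their mitochondrial share held fewer proteasome UMIs. The 94 such barcodes of the control had 26.1 per 10000, and the 260 of the RUNX1-labelled library had 39.7.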
